A study of Homo sapiens with 24 samples.

Results

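The effect on gene expression of adding GSK-J1 to irradiation was measured in Cal33 cells, as 4 Gy plus inhibitor against 4 Gy alone. The labels of cell line and treatment picked 6 of the 24 RNA-seq libraries of the series for this, with 3 replicates in each group, and every gene of the count files was considered. Cal33 is an established head and neck squamous cell carcinoma (HNSCC) line from the tongue, labelled as wild type. Both groups received a 4 Gy dose of X-rays, and the treated group had GSK-J1 added at 4.5 µM, a low inhibitory concentration according to the labels, with RNA isolated after 24 h of treatment. The other Cal33 libraries are a sham group and a group with GSK-J1 but no irradiation, and the remaining 12 libraries repeat the 4 treatments in SAS, a second HNSCC line. The comparison asks which messages change when the inhibitor is added to irradiation in a single cell line, since the study used it to look into radiosensitization by this compound.

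GSK-J1 inhibits UTX and JMJD3, the enzymes encoded by KDM6A and KDM6B that take methyl groups off lysine 27 of histone H3, a mark laid down by Polycomb complexes at silenced genes. In squamous carcinoma cells, the transcription factor HIF drives genes of low-oxygen metabolism such as CA9 and BNIP3, NF-kB drives chemokines and acute-phase proteins such as CCL20 and SAA1, and AP-1 drives many genes of the cornified envelope.

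The 6 libraries held between 69132254 and 82012963 counts on the strand of the gene. The 12 squamous markers, such as KRT5 and TP63, summed to 9620 to 12200 CPM in these libraries. For sums of markers CPM are relative to the unscaled library total, and for single genes to the TMM-scaled library size. The 23 markers of other cell types summed to 66.7 to 80.3 CPM with GSK-J1 and to 69.5 to 77.5 CPM without, with 2 to 5 of them at 0. The leukocyte gene PTPRC had at most 3 counts in any of the 6, but not all of these markers were near 0. COL1A1 had 2032 to 2859 counts, CDH5 1389 to 2529, CD14 427 to 625 and ACTA2 204 to 408. Libraries that share a replicate number strayed from their group means in the same way (r across genes = 0.83, 0.64 and 0.63), so GSK-J1 was compared within replicate pairs. This choice decides every call below: without the pairs edgeR called 0 of 24662 genes, with 197 below an unadjusted p of 0.05, and DESeq2 also called 0, with 67 below that p. An edgeR fit of all 12 Cal33 libraries, with a block by replicate number within each irradiation arm, also called 0 of 24351, with 185 below that p. Its unirradiated blocks use sham numbers that did not go with those of the group with GSK-J1 alone. So the calls depend on the libraries fitted as well as on the pairs. Nothing states that the replicates were separate cultures. With the pairs, p-values measure the spread of the differences within pairs, drawn toward a spread estimated across all genes. They do not measure the spread between samples, and either spread may be technical.

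Transcripts of the targets themselves did not pass the test. KDM6A had 75.2, 53.1 and 64.2 CPM in replicates 1, 2 and 3 with GSK-J1, against 74.6, 53.5 and 67.2 CPM after 4 Gy alone (log2 fold change -0.03, standard error 0.06, edgeR adjusted p = 0.980). KDM6B had 148, 72.0 and 105 CPM against 145, 88.0 and 93.4 CPM (log2 fold change -0.04, standard error 0.06, edgeR adjusted p = 0.977). The replicates of either gene differed from each other by more than the treatments did.

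Across all genes, adding GSK-J1 to 4 Gy went with small differences in few genes. With the replicate pairs, edgeR's quasi-likelihood test called 127 of 24662 genes at a Benjamini-Hochberg adjusted p under 0.05 (0.515%), of which 56 were higher (0.227%) and 71 lower (0.288%). The share of 0.515% is the one to set beside the calls of each list below, and these lists were chosen with earlier results of these data known. It also covers genes of few counts: 120 of the 127 calls lay among the 14307 genes with a mean of at least 50 counts. The median size of a called difference was 0.35 on the log2 scale, 6 called genes reached 2-fold (either direction), and 123 of the 127 had the same direction in all 3 pairs, against 29.7% of all genes tested. The CPM ranges of the 2 groups did not overlap for 23 of the called genes, and for 4.6% of all genes. The number of calls leans on a spread estimated across all genes, since 3 pairs leave 2 residual degrees of freedom: DESeq2 with the pairs called 29 genes (0.118%), 14 higher (0.0568%) and 15 lower (0.0608%), and all 29 were among the 127. Without pair 1, 2 or 3, 55, 47 and 94 of the 127 remained called by edgeR. Those fits gave each gene's own spread no weight beside the spread estimated across all genes. They therefore do not check how even a gene was between the pairs, here or in the lists below. A core of 13 genes was called by edgeR, by edgeR on genes with a mean of at least 10 counts, by DESeq2 and by limma voom, each with the pairs of the 6 libraries. The fit of 12 Cal33 libraries with a block called none of them. CCL20, PI3, SAA1 and the transcript AC112229.7 were higher in this core, and CA9, BNIP3, NDUFA4L2, NDRG1, MIR210HG, PPFIA4, PTHLH, TNC and NEAT1 were lower. AC112229.7, an uncharacterised transcript, had 8.81, 8.63 and 6.85 CPM in replicates 1, 2 and 3 with GSK-J1 against 5.67, 6.58 and 3.94 CPM after 4 Gy alone, with no overlap of the groups (log2 fold change 0.59, standard error 0.10, edgeR adjusted p = 2.79e-05).

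**Figure D1:**
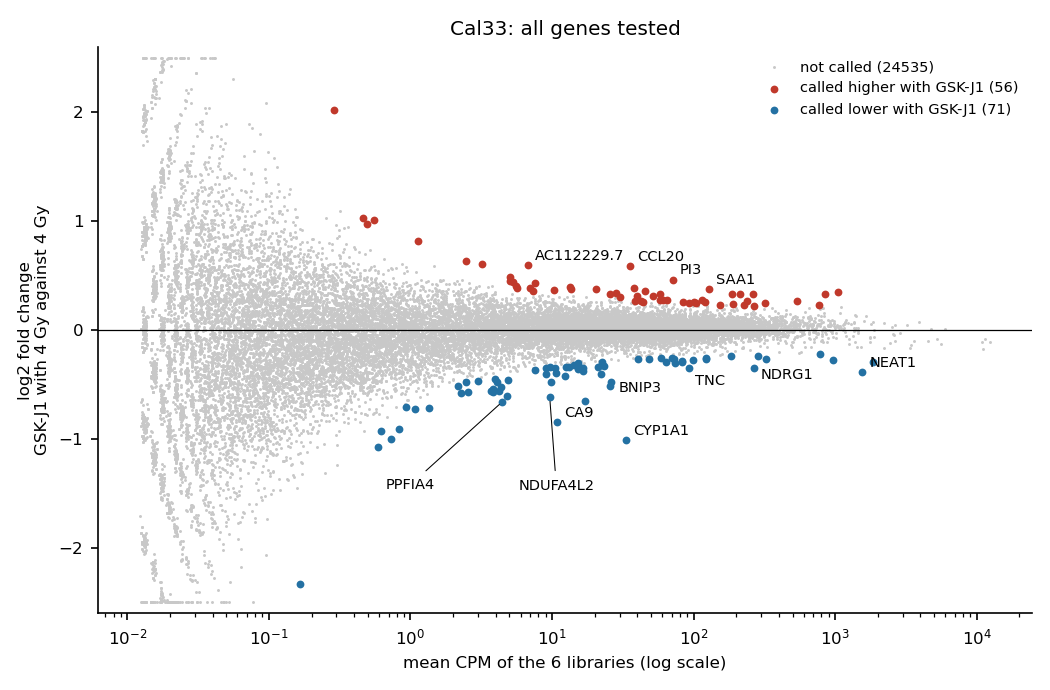
Log2 fold change of GSK-J1 with 4 Gy against 4 Gy in Cal33 (vertical axis, drawn within ±2.5) against the mean CPM of the 6 libraries (horizontal axis, log scale) for the 24662 genes tested. Red and blue points are the 56 genes called higher and the 71 called lower by edgeR with the replicate pairs, and CA9 and CYP1A1 stand out below the cloud of genes of similar level while CCL20 and PI3 stand out above it.

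Hypoxia and glycolysis genes lay mostly on the lower side. Of 32 genes of this list tested, 6 fell (CA9, BNIP3, NDRG1, EGLN3, LDHA and PDK1), 1 rose (SLC16A3) and 25 did not pass, against 0.515% called among all genes. With edgeR on genes with a mean of at least 10 counts, only CA9, BNIP3 and NDRG1 of these were called. The median log2 fold change of the list was -0.11, against 0.0076 for all genes, and 19 of the 30 members with a mean of at least 50 counts were lower in all 3 pairs, against 9.99% of all genes at that level. Without pair 1, 2 or 3 the list had 4, 5 and 6 genes called lower.

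CA9 encodes carbonic anhydrase IX, a surface enzyme that buffers pH in low oxygen, and is encoded on hs37d5 chromosome 9 (35673853 to 35681156). It had 3.64, 9.58 and 9.91 CPM in replicates 1, 2 and 3 with GSK-J1, against 6.33, 18.1 and 17.2 CPM after 4 Gy alone. The ratio within each pair was 0.575, 0.529 and 0.577, so the fall was of like size in all 3 although replicate 1 lay far below the others in both groups and the group ranges overlapped (log2 fold change -0.85, standard error 0.09, edgeR adjusted p = 8.95e-12, DESeq2 adjusted p = 8.86e-11). The sham group had 3.59 ± 0.24 CPM (SD, n = 3) and the group with GSK-J1 alone 2.65 ± 0.096 CPM, both means below each of the 3 libraries of 4 Gy alone. BNIP3, a mitophagy receptor, had 14.7, 18.9 and 30.3 CPM with GSK-J1 and 19.1, 29.0 and 43.0 CPM without (log2 fold change -0.51, standard error 0.07, edgeR adjusted p = 1.28e-06).

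EGLN3, a prolyl hydroxylase that marks HIF for degradation, had 1.70, 5.18 and 4.77 CPM against 2.93, 7.81 and 6.59 CPM (log2 fold change -0.60, edgeR adjusted p = 0.000195). NDRG1, a stress-responsive gene, had 274, 219.6 and 220.2 CPM against 324, 293 and 283 CPM, and here the groups did not overlap (log2 fold change -0.35, edgeR adjusted p = 9.67e-05). LDHA, the lactate dehydrogenase subunit that makes lactate, had 594, 1004 and 1013 CPM against 696, 1139 and 1311 CPM (log2 fold change -0.27, edgeR adjusted p = 0.00643). PDK1, a kinase that inhibits pyruvate dehydrogenase, had 12.2, 15.5 and 16.2 CPM against 15.4, 19.3 and 20.9 CPM (log2 fold change -0.35, edgeR adjusted p = 0.00880, DESeq2 adjusted p = 0.0685). Each of these was lower in all 3 pairs. The exception, SLC16A3, picked here after its values were seen, exports lactate and was higher in all 3, at 182.9, 85.3 and 102.8 CPM against 170.4, 73.3 and 70.6 CPM (log2 fold change 0.28, edgeR adjusted p = 0.0124). Its call was lost without pair 2, without pair 3 and with DESeq2. The glucose transporter SLC2A1 had a log2 fold change of -0.01, and VEGFA, the angiogenic growth factor, one of -0.11 (edgeR adjusted p = 0.663), so neither passed.

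Of the lower core genes outside the list, 3 are given here. NDUFA4L2, a mitochondrial protein induced in low oxygen, had 3.82, 9.15 and 9.97 CPM against 6.03, 15.4 and 13.4 CPM (log2 fold change -0.62, standard error 0.09, edgeR adjusted p = 1.86e-06). MIR210HG, the host transcript of a microRNA induced by HIF, had 5.27, 8.16 and 11.5 CPM against 7.36, 11.9 and 15.1 CPM (log2 fold change -0.48, edgeR adjusted p = 0.000391). PPFIA4, a liprin named here for its place in the core, had 2.68, 3.30 and 4.39 CPM against 3.59, 6.19 and 6.65 CPM (log2 fold change -0.66, edgeR adjusted p = 4.12e-05). All 3 were lower in each pair. In bulk RNA, fewer cells that make a message and less of it per cell cannot be told apart.

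The sequences in front of CA9 and BNIP3 are shown because these 2 genes had the smallest p of the list. Promoters are those of RefSeq on GRCh38.p14, from 250 bases before to 50 bases after the start, and capitals mark ACGTG or GCGTG, the core bound by HIF, read on both strands with overlaps kept.
CA9 (chr9:35673678-35673977, plus strand): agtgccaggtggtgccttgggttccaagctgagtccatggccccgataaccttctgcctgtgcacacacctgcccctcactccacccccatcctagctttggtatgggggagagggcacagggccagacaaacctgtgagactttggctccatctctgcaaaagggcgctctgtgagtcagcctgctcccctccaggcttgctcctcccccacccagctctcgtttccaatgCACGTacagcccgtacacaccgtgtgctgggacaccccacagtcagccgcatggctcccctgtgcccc
BNIP3 (chr10:131981874-131982173, minus strand): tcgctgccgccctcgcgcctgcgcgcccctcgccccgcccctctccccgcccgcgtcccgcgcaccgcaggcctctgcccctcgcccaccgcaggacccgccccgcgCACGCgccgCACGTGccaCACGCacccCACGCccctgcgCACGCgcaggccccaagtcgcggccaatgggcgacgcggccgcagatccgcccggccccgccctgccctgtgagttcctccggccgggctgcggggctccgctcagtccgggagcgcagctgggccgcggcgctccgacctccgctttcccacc
Counted with the first transcribed base as 1, the match in CA9 starts at -18, and BNIP3 has 6 matches between -143 and -104. This core was found in 71.4% of 28 promoters of the list, in 47.7% of 44 promoters of genes called lower, in 43.2% of 37 promoters of genes called higher in 59.2% of the 14239 promoters of all tested genes and in 48.4% of all 27305 promoters. A short core is found by chance in many promoters, and GCGTG is also the core bound by the aryl hydrocarbon receptor, so a match is no binding site.

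NF-kB feedback genes, chemokines and inflammatory cytokines stood on the higher side. Of 34 tested, 7 rose (CCL20, SAA1, TNFAIP2, LCN2, IL8, SAA2 and NFKBIA), none fell and 27 did not pass, against 0.515% called among all genes. With edgeR on genes with a mean of at least 10 counts, only CCL20 and SAA1 of the 7 were called. The median log2 fold change of the list was 0.12, and it was 0.0048 without pair 3. DESeq2 with the pairs called 6 of them higher, NFKBIA being the exception (adjusted p = 0.0812), and without pair 1, 2 or 3 edgeR called 5, 8 and 8 higher and 0, 0 and 1 lower. Of the 32 members with a mean of at least 50 counts, 13 were higher in all 3 pairs, against 22.9% of all genes at that level.

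CCL20, a chemokine that attracts dendritic cells and T cells, is encoded on hs37d5 chromosome 2 (228678558 to 228682272). It had 98.1, 18.0 and 8.01 CPM with GSK-J1, against 73.3, 11.2 and 4.69 CPM after 4 Gy alone, ratios of 1.34, 1.6 and 1.71 (log2 fold change 0.59, standard error 0.07, edgeR adjusted p = 3.90e-08, DESeq2 adjusted p = 1.82e-06). Replicate 1 was the highest in both groups by several fold, so the group ranges overlapped and the rise is seen within pairs. IL8, which attracts neutrophils, followed the same order of replicates, at 576, 214 and 78.8 CPM against 489, 169.06 and 57.6 CPM (log2 fold change 0.33, edgeR adjusted p = 0.000372).

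SAA1, an acute-phase protein, had 291, 96.0 and 47.5 CPM against 227, 80.4 and 32.4 CPM (log2 fold change 0.38, standard error 0.06, edgeR adjusted p = 5.17e-05). SAA2, its neighbour and close copy, had 143, 35.8 and 14.8 CPM against 111, 29.8 and 11.2 CPM (log2 fold change 0.33, edgeR adjusted p = 0.00181), and reads shared between these copies could be counted for either. LCN2, a siderophore-binding antimicrobial protein, had 1262, 981 and 578 CPM against 1062, 816 and 408 CPM (log2 fold change 0.33, edgeR adjusted p = 0.000319). In the 3 genes every pair was higher with GSK-J1. TNFAIP2, a gene induced by TNF, had 2144, 816 and 476 CPM against 1788, 703 and 315 CPM (log2 fold change 0.35, edgeR adjusted p = 0.000173), and NFKBIA, the inhibitor that ends NF-kB signalling, 258, 132 and 107 CPM against 217, 116 and 87.2 CPM (log2 fold change 0.23, edgeR adjusted p = 0.0379). Members that did not pass included ICAM1 (log2 fold change 0.25, edgeR adjusted p = 0.0583), TNFAIP3, another feedback gene, at -0.16, and the cytokine IL6 at -0.17. NFKB1 and IL1A had log2 fold changes of 0.02 and 0.00.

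PI3 (elafin) and SLPI, secreted inhibitors of neutrophil elastase, moved the same way. PI3 is encoded on hs37d5 chromosome 20 (43803517 to 43805185) and had 122, 97.0 and 26.8 CPM against 90.1, 76.1 and 17.0 CPM (log2 fold change 0.46, standard error 0.06, edgeR adjusted p = 9.46e-07, DESeq2 adjusted p = 1.04e-05). SLPI had 348, 319 and 205 CPM against 281, 285 and 175 CPM (log2 fold change 0.23, edgeR adjusted p = 0.0463). Both were higher in all 3 pairs, and S100P, a calcium-binding protein, was too (57.5, 17.6 and 19.1 CPM against 46.6, 13.8 and 14.5 CPM, log2 fold change 0.34, edgeR adjusted p = 0.00527).

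**Figure D2:**
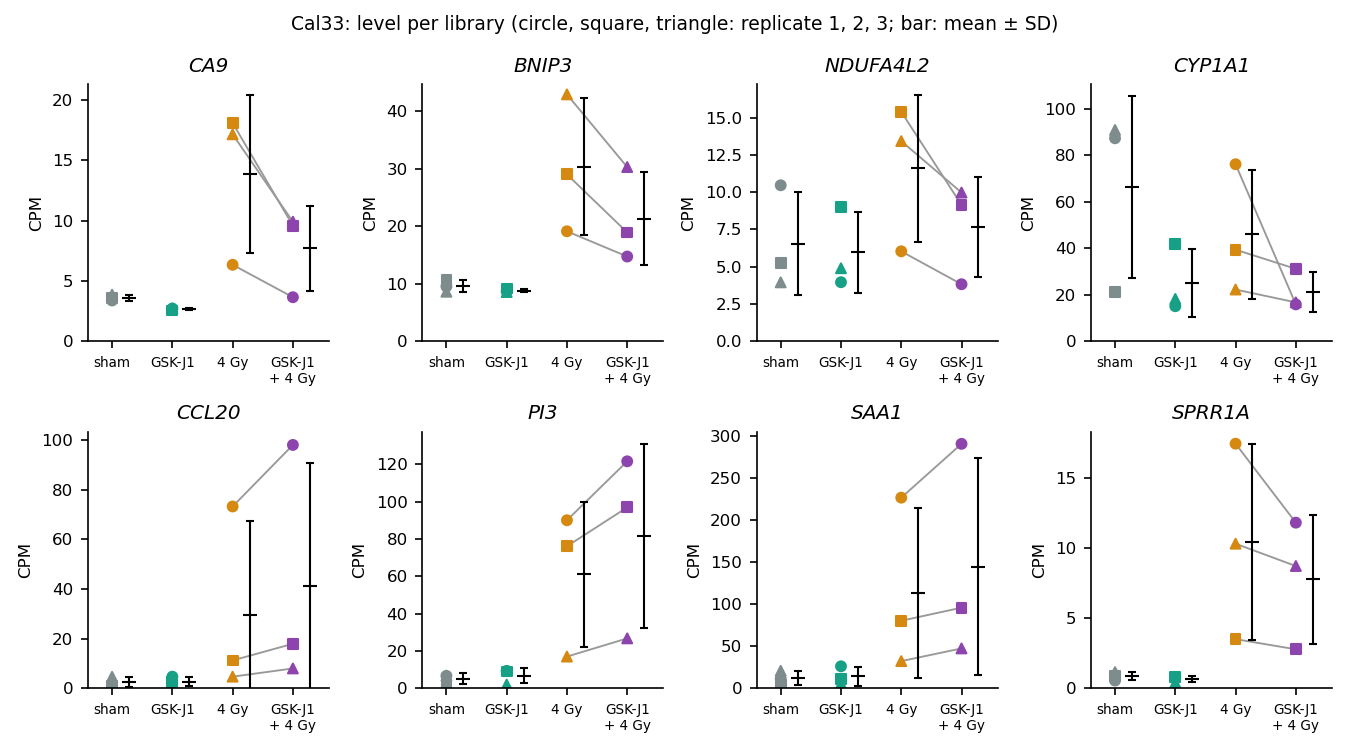
CPM per library (vertical axes, from 0) of 8 genes in Cal33 under all 4 treatments. Symbols are single libraries, grey lines join the replicate pairs of the 2 irradiated groups, and bars give mean ± SD (n = 3, drawn from 0 upward). The lines of CA9, BNIP3, NDUFA4L2, CYP1A1 and SPRR1A run downward and those of CCL20, PI3 and SAA1 upward in all 3 pairs, over replicates that lie far apart.

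Promoters of 2 chemokines are shown because both rose and carry the same motif. Capitals mark GGAANNNCC, a pattern found in NF-kB sites, on either strand.
CCL20 (chr2:227813592-227813891, plus strand): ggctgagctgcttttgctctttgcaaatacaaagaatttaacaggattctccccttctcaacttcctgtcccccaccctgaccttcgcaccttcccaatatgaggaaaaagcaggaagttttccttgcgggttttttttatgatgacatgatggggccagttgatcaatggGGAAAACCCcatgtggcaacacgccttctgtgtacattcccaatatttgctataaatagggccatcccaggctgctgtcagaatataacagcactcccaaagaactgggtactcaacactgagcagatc
IL8, named CXCL8 in RefSeq (chr4:73740319-73740618, plus strand): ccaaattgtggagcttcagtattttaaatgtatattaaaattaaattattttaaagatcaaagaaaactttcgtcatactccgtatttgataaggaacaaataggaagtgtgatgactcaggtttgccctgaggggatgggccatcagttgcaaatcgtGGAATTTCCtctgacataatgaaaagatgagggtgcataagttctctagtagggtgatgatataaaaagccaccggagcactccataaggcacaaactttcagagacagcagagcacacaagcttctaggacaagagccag
The match starts at -79 in CCL20 and at -91 in IL8. The pattern was found in 73.1% of 26 promoters of the NF-kB list, in 37.8% of 37 promoters of genes called higher, in 22.7% of 44 of genes called lower in 22.5% of those of all tested genes and in 20.1% of all 27305 promoters. The list was itself put together from known NF-kB targets.

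**Figure D3:**
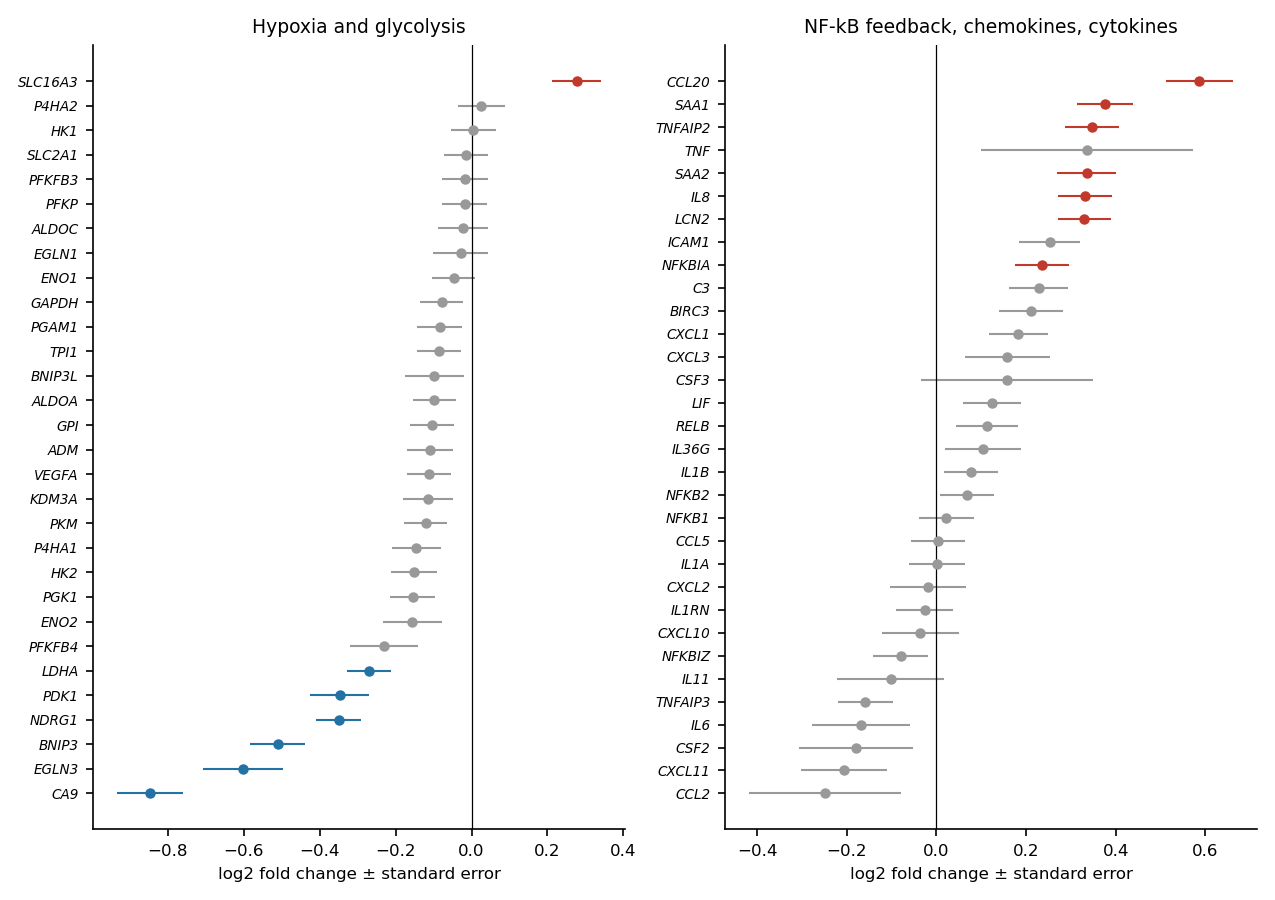
Log2 fold change ± standard error of GSK-J1 with 4 Gy against 4 Gy in Cal33 (horizontal axes) for the members of 2 lists with a mean of at least 50 counts. Blue and red mark genes called lower and higher by edgeR with the replicate pairs, and grey genes did not pass. In the hypoxia list 6 genes are called lower, down to -0.85 for CA9, and in the NF-kB list 7 are called higher, up to 0.59 for CCL20.

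The difference between replicates ran along with the genes called higher, and far less with those called lower. On the log2(CPM + 0.1) scale, replicate 1 differed from replicates 2 and 3 by a median of 0.24 per gene, against 0.06 between the treatments, over the 14307 genes with a mean of at least 50 counts. Of the 52 genes called higher at that level, 49 (94.2%) were also higher in replicate 1 than in replicates 2 and 3 of the irradiated groups. Of the 68 called lower, 41 (60.3%) were lower there. Over all genes both differences had the same sign in 54.1%, near the share for genes called lower. CCL20 differed by 3.17 between replicate 1 and the others, SAA1 by 2.13, IL8 by 2.23 and CA9 by -1.43. Other genes that fell were higher in replicate 1, such as NDRG1 (0.24), TNC (0.90) and SPRR1A (1.38). The part of this replicate difference in the GSK-J1 result was not tested.

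Cornified envelope genes moved in both directions. Of 39 tested, 5 fell (SPRR3, CASP14, SPRR1A, SPRR1B and IVL), 2 rose (PI3 and SLPI, described above, which are protease inhibitors) and 32 did not pass. So 17.9% were called, against 0.515% of all genes, and the median log2 fold change was -0.06. SPRR1A, a small proline-rich envelope protein, had 11.8, 2.78 and 8.72 CPM with GSK-J1 and 17.5, 3.51 and 10.3 CPM without (log2 fold change -0.40, standard error 0.09, edgeR adjusted p = 0.0117). SPRR1B had 23.2, 15.98 and 21.3 CPM against 30.5, 18.9 and 25.3 CPM (log2 fold change -0.31, edgeR adjusted p = 0.0212), and SPRR3 3.24, 2.21 and 3.78 CPM against 4.84, 2.87 and 5.995 CPM (log2 fold change -0.56, edgeR adjusted p = 0.00163). Reads of these similar genes may be shared between them. CASP14, a protease of terminal differentiation, had 2.05, 6.13 and 2.46 CPM against 3.73, 7.42 and 3.72 CPM (log2 fold change -0.56, edgeR adjusted p = 0.00214). Each was lower in all 3 pairs. The falls depend on replicate 1: without pairs 1, 2 and 3 edgeR called 0, 3 and 6 members lower, and DESeq2 with the pairs called none of them (677 of all genes at an unadjusted p under 0.05). Keratins were mixed as well, with KRT86, a hair keratin, higher (log2 fold change 0.60, edgeR adjusted p = 0.00326), KRT4, a keratin of mucosal epithelium, lower (-0.26, edgeR adjusted p = 0.0179) and 44 of 46 not passing.

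Matrix metalloproteinases divided. MMP10 (stromelysin-2) had 8.13, 13.7 and 18.3 CPM with GSK-J1 and 10.1, 16.2 and 25.3 CPM without (log2 fold change -0.35, edgeR adjusted p = 0.00950), and MMP1, interstitial collagenase, 37.2, 65.7 and 57.6 CPM against 45.1, 74.2 and 70.9 CPM (log2 fold change -0.26, edgeR adjusted p = 0.0268). MMP13, another collagenase, had 89.1, 27.2 and 28.0 CPM against 73.2, 22.3 and 23.6 CPM (log2 fold change 0.26, edgeR adjusted p = 0.0339), and MMP15, a membrane-bound enzyme, 43.5, 41.5 and 41.9 CPM against 39.5, 35.7 and 29.8 CPM (log2 fold change 0.27, edgeR adjusted p = 0.0353). So 2 of 21 genes of matrix metalloproteinases and the urokinase system rose and 2 fell, and only for MMP15 did the groups not overlap. Without pair 1 none of the 21 was called, without pair 2 only 1, which was lower, and without pair 3 there were 2 higher and 3 lower.

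Promoters of 2 genes that fell are shown since they share a motif like that of AP-1. Capitals mark TGANTCA on either strand, a loose form of the AP-1 site that takes any base in the middle. The match in MMP10 and 1 of those in SPRR1B read TGAATCA, and a match is no binding site.
SPRR1B (chr1:153030953-153031252, plus strand): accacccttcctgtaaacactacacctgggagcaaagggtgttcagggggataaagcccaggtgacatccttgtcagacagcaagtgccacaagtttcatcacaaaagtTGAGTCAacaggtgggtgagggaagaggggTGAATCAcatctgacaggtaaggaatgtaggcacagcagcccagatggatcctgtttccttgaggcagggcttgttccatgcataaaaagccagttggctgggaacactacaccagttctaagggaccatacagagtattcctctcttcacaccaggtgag
MMP10 (chr11:102780579-102780878, minus strand): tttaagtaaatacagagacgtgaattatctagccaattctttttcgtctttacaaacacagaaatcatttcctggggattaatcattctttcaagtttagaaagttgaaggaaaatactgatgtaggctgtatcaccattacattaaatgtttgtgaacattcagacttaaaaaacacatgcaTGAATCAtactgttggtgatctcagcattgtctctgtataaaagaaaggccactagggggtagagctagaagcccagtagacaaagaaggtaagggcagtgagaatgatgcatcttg
SPRR1B has 2 matches, at -141 and -111, and MMP10 has 1, at -67. The motif was found in 12 of 44 promoters of genes called lower (27.3%), in 4 of 37 of genes called higher (10.8%), in 5.71% of those of all tested genes and in 7.76% of all 27305 promoters. Those 12 were CA9, TRIML2, SPRR3, ATG9B, CASP14, UCN2, SPRR1A, MMP10, IVL, SPRR1B, AMIGO2 and F3. Of 23 genes of AP-1 and early growth response factors themselves, none was called, and FOSL1, an AP-1 subunit, had a log2 fold change of -0.20 (edgeR adjusted p = 0.149).

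Genes of epithelial-to-mesenchymal transition were mostly lower, with 16 of 20 below 0, against 47.6% of all genes, and a median log2 fold change of -0.09. TNC, tenascin C of the extracellular matrix, had 122, 57.1 and 69.9 CPM with GSK-J1 and 147, 73.5 and 91.5 CPM without (log2 fold change -0.35, standard error 0.06, edgeR adjusted p = 0.000216). LOXL2, a collagen cross-linking enzyme, had 65.7, 52.9 and 55.1 CPM against 76.8, 72.8 and 61.6 CPM (log2 fold change -0.29, edgeR adjusted p = 0.00789). SNAI2, the repressor Slug, had 29.9, 31.7 and 48.6 CPM against 32.9, 38.0 and 62.1 CPM (log2 fold change -0.26, edgeR adjusted p = 0.0381). These 3 fell, each in all 3 pairs, and 17 did not pass (0.515% of all genes were called). DESeq2 with the pairs called TNC alone of the 3. Without pair 1, 2 or 3 there were 2, 1 and 4 called lower. COL7A1, the anchoring-fibril collagen of epithelia, also fell (log2 fold change -0.24, edgeR adjusted p = 0.0370, not called without pair 1 or without pair 2), as did F3, tissue factor (-0.22, edgeR adjusted p = 0.0443). PTHLH, the parathyroid hormone-related protein of squamous tumours and 1 of the core genes, was named after its values were seen. It had 15.7, 19.2 and 31.3 CPM against 22.5, 26.8 and 41.2 CPM (log2 fold change -0.48, standard error 0.07, edgeR adjusted p = 6.35e-06).

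Several signalling genes were higher with GSK-J1. WNT4, a secreted WNT ligand, had 69.5, 35.3 and 23.5 CPM against 56.2, 27.9 and 15.9 CPM (log2 fold change 0.39, standard error 0.07, edgeR adjusted p = 0.000256), and was the single call among 38 WNT pathway genes. ID1, an inhibitor of differentiation factors induced by BMP, had 210.5, 255 and 250.1 CPM against 191, 212 and 163 CPM (log2 fold change 0.33, edgeR adjusted p = 0.000958). In the Notch pathway 2 of 25 rose (8.0%, against 0.515% of all genes called), the receptor NOTCH3 (log2 fold change 0.24, edgeR adjusted p = 0.0378) and the feedback gene NRARP (0.28, edgeR adjusted p = 0.0147). DESeq2 with the pairs called neither, edgeR called 1, 0 and 0 without pair 1, 2 or 3, and the median of this list went from 0.048 to -0.0009 without pair 3. GDF15, a stress cytokine under p53, had 337, 107 and 174 CPM against 289, 102 and 104 CPM, so its rise lay mostly in pair 3 (log2 fold change 0.34, edgeR adjusted p = 0.00193, and 0.147 without pair 3). It was the single call among 28 p53 targets. Of 20 putative cancer stem cell markers, 2 rose (10.0%, against 0.515% of all genes called), the aldehyde dehydrogenase ALDH2 (log2 fold change 0.32, edgeR adjusted p = 0.00558) and the neurotrophin receptor NGFR (0.25, edgeR adjusted p = 0.0379). Neither was called without pair 1 or without pair 2.

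CYP1A1, a monooxygenase of xenobiotics and estrogens, had the largest fall among called genes with a mean of at least 50 counts that fell in all 3 pairs. It is encoded on hs37d5 chromosome 15 (75011883 to 75017951) and had 15.8, 31.0 and 16.6 CPM with GSK-J1, against 76.0, 39.3 and 22.2 CPM after 4 Gy alone. The ratios within pairs were 0.207, 0.790 and 0.751, so most of the fall lay in pair 1 (log2 fold change -1.01, standard error 0.12, edgeR adjusted p = 2.45e-09, and 0.0731 without pair 1). DESeq2 with the pairs gave an adjusted p of 1.00, and edgeR on genes with a mean of at least 10 counts 0.258. Of 17 genes of the aryl hydrocarbon receptor axis that controls CYP1A1, 10 were higher and 7 lower, and CYP1A1 was the single call. The list of xenobiotic, coumarin and estrogen metabolism had 27 of 48 higher with a median log2 fold change of 0.02 and again no call but CYP1A1. In fatty acid synthesis, elongation and desaturation, 27 of 34 were higher, against 52.4% of all genes, with a median of 0.06. The prostaglandin E synthase PTGES rose (74.3, 52.6 and 66.0 CPM against 60.4, 46.9 and 50.04 CPM, log2 fold change 0.28, edgeR adjusted p = 0.0124, and 0.360 without pair 1) and the other 33 did not pass. NRF2 targets, the antioxidant program, had 24 of 25 members above 0, against 52.4% of all genes, with a median of 0.09 and no call. FTL, the ferritin light chain, came nearest (log2 fold change 0.21, edgeR adjusted p = 0.0803).

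Among abundant and cancer-linked long noncoding RNAs, 4 of 23 fell (NEAT1, MALAT1, UCA1 and MIR210HG) and none rose, against 0.515% of all genes called. Of the 23, 19 were below 0, against 47.6% of all genes, with a median log2 fold change of -0.16. NEAT1, the scaffold of paraspeckles, had 1469, 1432 and 1153 CPM with GSK-J1 and 1694, 1979 and 1591 CPM without, with no overlap of the groups (log2 fold change -0.39, standard error 0.06, edgeR adjusted p = 6.21e-06, DESeq2 adjusted p = 2.90e-05). MALAT1, a nuclear speckle RNA, had 215, 169.2 and 130.0 CPM against 213, 212 and 169.1 CPM, so pair 1 did not share its fall (log2 fold change -0.24, edgeR adjusted p = 0.0409, and 0.630 without pair 2). UCA1, a transcript of carcinoma cells, had 15.0, 20.6 and 21.7 CPM against 16.7, 28.4 and 31.4 CPM (log2 fold change -0.40, edgeR adjusted p = 0.000753). The medians of the list within pairs were 0.00, -0.18 and -0.23.

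Among mitochondrially encoded genes, 32 of 34 were lower, against 47.6% of all genes, and the median log2 fold change was -0.17. Within pairs 1, 2 and 3 the median was 0.10, -0.11 and -0.40, so the list moved in opposite directions in pairs 1 and 3. MT-ND1, a subunit of respiratory complex I, had 2027, 1284 and 1667 CPM against 2040, 1557 and 2450 CPM (log2 fold change -0.29, edgeR adjusted p = 0.00479). MT-ND6, the subunit encoded on the opposite strand, had 79.1, 76.0 and 69.0 CPM against 81.4, 100.5 and 91.6 CPM (log2 fold change -0.29, edgeR adjusted p = 0.00666). These and the transfer RNA gene MT-TL1 fell, and 31 did not pass, against 0.515% called among all genes. Without pair 1 there were 5 called lower and without pair 2 none, and without pair 3 there were 1 higher and 2 lower with a median of -0.053. All mitochondrial genes took 8.35, 6.23 and 5.43% of the counts with GSK-J1 and 7.79, 6.76 and 7.21% without. Nuclear genes of the respiratory chain were higher in 70 of 78 cases (median 0.04) and cytosolic ribosomal protein genes in 71 of 87 (median 0.05). Of all genes 52.4% were higher, and neither list held a call.

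**Figure D4:**
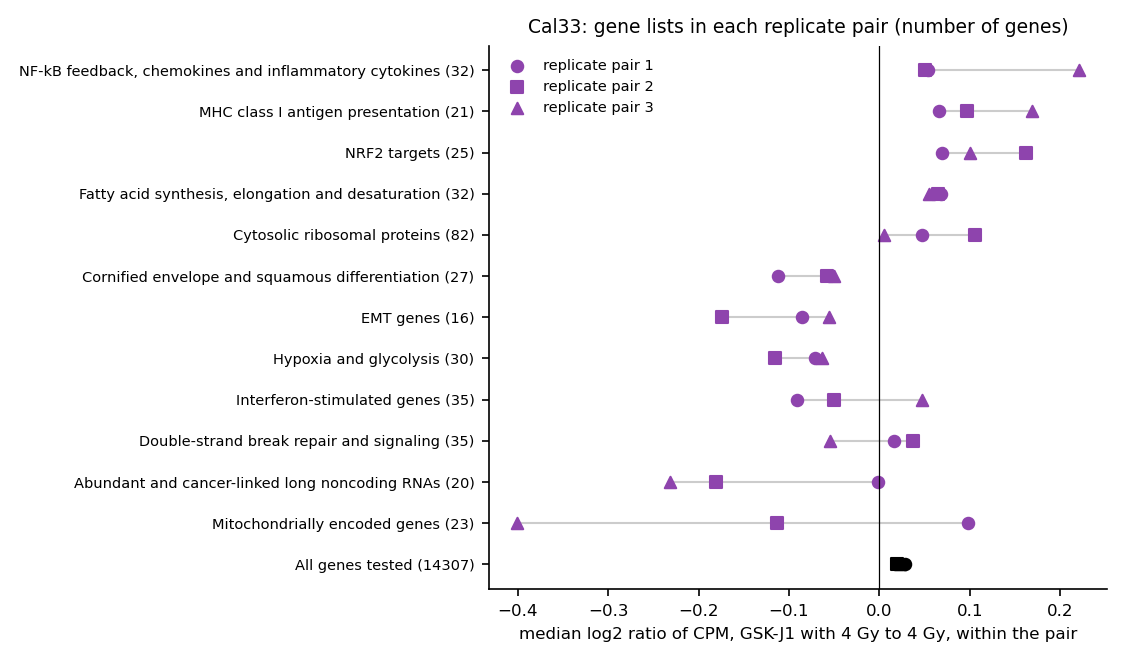
Median log2 ratio of CPM, GSK-J1 with 4 Gy to 4 Gy, within each replicate pair of Cal33 (horizontal axis) over the members of 12 lists and over all genes, each with a mean of at least 50 counts (number of genes in brackets). Circles, squares and triangles are pairs 1, 2 and 3. Hypoxia, epithelial-to-mesenchymal transition (EMT) and cornified envelope genes lie below 0 in every pair, while mitochondrially encoded genes spread from 0.10 to -0.40. NF-kB, MHC class I, NRF2, fatty acid and ribosomal protein genes lie above 0 in every pair. So do all genes, at 0.028, 0.020 and 0.023 in pairs 1, 2 and 3.

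Genes of MHC class I antigen presentation had 18 of 21 members above 0, against 52.4% of all genes. Their median log2 fold change was 0.12 (0.049 without pair 3), and 14 were higher in all 3 pairs, against 22.9% of all genes. HLA-B, a presenting heavy chain, had 893, 791 and 784 CPM with GSK-J1 and 841, 710.3 and 558 CPM without, and was the single call (log2 fold change 0.23, edgeR adjusted p = 0.0423, and 0.0791, 0.171 and 0.294 without pair 1, 2 or 3). It is among the HLA genes that share reads with near-identical copies. Of 35 interferon-stimulated genes 25 were lower, against 47.6% of all genes, with a median of -0.03. Among them IRF9, a subunit of the interferon-activated factor, fell (20.3, 9.20 and 11.8 CPM against 21.2, 12.9 and 15.6 CPM, log2 fold change -0.32, edgeR adjusted p = 0.0379). Of these genes 11 were lower in all 3 pairs and none was higher in all 3, and without pair 1, 2 or 3 edgeR called 0, 0 and 5 lower, with a median of -0.095 without pair 3.

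No gene was called among 36 of double-strand break repair and signalling (median log2 fold change -0.02), 32 of G1/S and DNA replication (-0.02), 32 of G2/M and mitosis (0.03), 22 of the constitutive centromere complex (0.01), 64 clustered histone genes (-0.09), 35 HOX genes (0.05), 30 H3K27 demethylases and Polycomb genes (0.02) and 27 other Jumonji demethylases (0.01). XRCC2, a recombination factor, had the smallest p of the repair list (log2 fold change -0.20, edgeR adjusted p = 0.336) and CBX7, a Polycomb reader, that of its list (0.22, edgeR adjusted p = 0.210). The lists of cholesterol synthesis, MAPK feedback, EGFR ligands, BCL2 family, integrins, desmosome, kallikreins, SERPINB genes, metallothioneins, heat shock proteins and squamous lineage factors held no call either. Only 0.515% of all genes were called, so the lack of a call in lists of this size is no result about their genes. At this number of replicates a small difference in such lists could be missed.

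The effect of GSK-J1 after 4 Gy was compared with its effect without irradiation over the 12 Cal33 libraries. No gene was called by edgeR for the difference between them among 24351 (209 at an unadjusted p under 0.05), and none by DESeq2 (72). This test was made without replicate pairs, since sham libraries did not go with the same number of the other groups, and its errors were wide. Sham replicate 3 went with replicate 1 of GSK-J1 with 4 Gy, GSK-J1 and 4 Gy (r across genes = 0.58, 0.71 and 0.59). Sham replicate 2 went with their replicate 3 (0.42, 0.68 and 0.56). What lies behind this order was not tested. With a block by replicate number within each irradiation arm the test of the difference also called 0 (135). For CA9 the log2 fold change without irradiation was -0.44 (standard error 0.19), and the difference to that after 4 Gy was -0.41 (standard error 0.54). For CYP1A1 it was -1.41 (standard error 0.52), with a difference of 0.30 (standard error 0.78). For CCL20 it was 0.18 (standard error 0.65), and for PI3 0.43 (standard error 0.59). CCL20 had 2.71 ± 1.93 CPM (SD, n = 3) with GSK-J1 alone and 2.38 ± 2.00 in the sham group, and PI3 6.79 ± 4.17 and 5.04 ± 2.97 CPM, levels far under those of replicate 1 of the irradiated groups. SPRR1A was below 1.2 CPM in all unirradiated libraries.

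The same comparison in SAS differed for several antimicrobial and acute-phase genes, and for CA9, BNIP3 and NDRG1 no difference passed the test. A test of the difference between the lines, with the pairs of each (in SAS, r across genes = 0.47, 0.36 and 0.59 for same-numbered libraries), called 167 of 24945 genes (0.669%), 117 higher (0.469%) and 50 lower (0.200%) in Cal33 relative to SAS. In SAS, replicate 1 of GSK-J1 with 4 Gy carried RNA of 11 genes expressed in Cal33 and not in SAS, amounting to 0.703% of the Cal33 level, whereas the other irradiated SAS libraries had 0.00299% or less. Leaving out that replicate pair gave 52 calls (0.207%), 42 higher (0.167%) and 10 lower (0.0399%). Of the 127 genes called in Cal33, 32 differed between the lines, and 18 did without that pair.

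S100P had 11.5, 14.7 and 6.004 CPM in SAS with GSK-J1 and 20.1, 23.0 and 8.37 CPM without, lower in every pair, while it was higher in every pair in Cal33. The log2 fold changes were 0.34 in Cal33 and -0.66 in SAS, a difference of 0.98 (standard error 0.09, edgeR adjusted p = 2.42e-06, and 3.96e-05 without SAS replicate 1). PI3 had 11.9, 5.89 and 4.22 CPM in SAS with GSK-J1 and 18.8, 10.2 and 4.76 CPM without, a difference between the lines of 1.02 (standard error 0.11, edgeR adjusted p = 1.92e-05). SAA1, LCN2 and SLPI likewise rose in Cal33 and fell in SAS, with log2 fold changes of -0.50, -0.46 and -0.44 there. S100A9, a subunit of calprotectin, fell in SAS (-0.74) and had 0.20 in Cal33, which did not pass (edgeR adjusted p = 0.105). For CCL20 the difference of 0.44 between the lines did not pass (edgeR adjusted p = 0.0766). CA9 fell in both, with -0.61 in SAS (difference -0.25, edgeR adjusted p = 0.518), as did NDRG1 (-0.43), BNIP3 (-0.30) and CYP1A1 (-0.91 in SAS). The lactate exporter SLC16A3 differed by 0.38 (edgeR adjusted p = 0.0445). Without the pairs no difference between the lines was called (379 at an unadjusted p under 0.05).

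**Figure D5:**
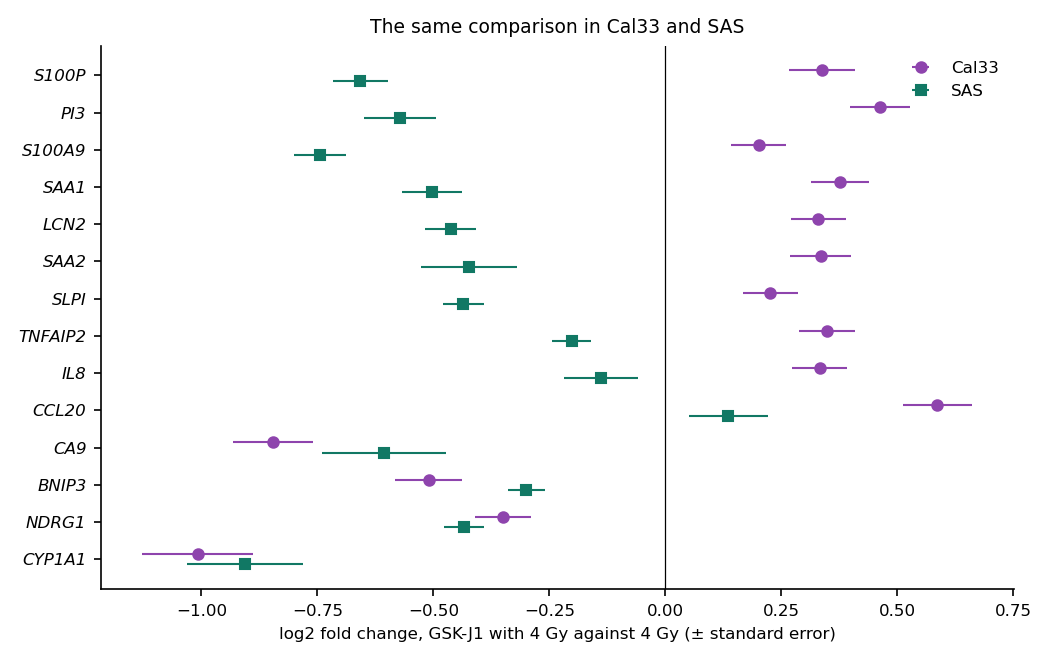
Log2 fold change ± standard error of GSK-J1 with 4 Gy against 4 Gy (horizontal axis) for 14 genes in Cal33 (circles) and SAS (squares), each from a fit with the replicate pairs of that line. From S100P to IL8 the lines lie on opposite sides of 0, and CA9, BNIP3, NDRG1 and CYP1A1 are below 0 in both.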

How the data were processed

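RNA was sequenced from stranded total-RNA libraries (paired-end). The authors aligned reads to hs37d5 with STAR 2.5.3a, used SAMtools 1.6, and counted them per gene with featureCounts of Subread 1.5.1, and the deposited values used here are raw, unnormalized strand-specific counts for 57820 genes. Counts without regard to strand served as an alternative, and the other normalized columns of the files were not used here.

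Tests used edgeR 4.0.16 under R 4.3.3: a quasi-likelihood fit after TMM scaling with replicate number as block, on genes averaging 1 count or more, with calls where the Benjamini-Hochberg adjusted p was under 0.05. A standard error is the log2 fold change divided by the square root of F. CPM were scaled over the 12 Cal33 libraries. DESeq2 1.42.0 and limma 3.58.1 (voom) were alternatives, the latter and edgeR's robust spread chosen after the data were seen. In simulated counts for GSK-J1 with 4 Gy against 4 Gy, run on 24662 genes, 41% of 1.5-fold and 60% of 2-fold changes were recovered with the replicate block, at 3 false calls, against 0% of each without it. The simulated counts were built with the pair structure and the spread of the paired fit. The loss without the block was thus set in advance, and the simulation does not test whether pairing is right.

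Replicate numbers come from the sample titles, and nothing in the labels says what they share. They were taken as pairs because each of the 3 correlations of deviations over 17999 genes was above 0.1 in Cal33, as were those over 17309 genes in SAS. Gene lists and members were chosen with earlier results of these data known. Named genes are KDM6A and KDM6B, the leading 12 calls by size in each direction (mean of at least 50 counts, same direction in 3 pairs), up to 6 called members of each list or else the 2 with the smallest p, and the leading genes of the tests of difference, and all others were picked after their values were seen. Promoters (RefSeq) were matched for 14239 of the 24662 genes. Depth limits precision for genes of few counts.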

Additional observations from a re-analysis of the deposited data

Results flagged for a closer look

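A total of 167 genes passed the test of a difference between the lines, and of those named by the rule given with the methods, the 15 that also passed without SAS replicate 1 follow. Their response to GSK-J1 with 4 Gy against 4 Gy was compared between Cal33 and SAS by edgeR with the replicate pairs of each line, adjusted over all genes, and the difference is given on the log2 scale as Cal33 minus SAS. S100P differed by 0.98, PI3 by 1.02, S100A9 by 0.94, SAA1 by 0.87, LCN2 by 0.78, SAA2 by 0.76 and SLPI by 0.66. These 7 encode antimicrobial, acute-phase or calcium-binding secreted proteins, and without SAS replicate 1, which held transcripts of Cal33, S100P still differed by 0.88 and SAA2 by 0.62. TNFAIP2 differed by 0.54, PTGES by 0.47 and IL8 by 0.46. ELF3, an epithelial transcription factor, differed by 0.55 and SERPINB3, a protease inhibitor of squamous epithelium, by 0.63, although neither was called in Cal33 itself (edgeR adjusted p = 0.230 and 0.269). The transcript RP11-7K24.3 differed by 0.83.

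On the other side, TRIML2, a tripartite motif family member, differed by -0.85 and the nuclear RNA MALAT1 by -0.40. All 15 differences also passed without SAS replicate 1 (highest adjusted p = 0.0469, for RP11-7K24.3).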

How the results depend on the processing

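The number of called genes depended on how the spread was estimated. Against 127 calls, the fit with no replicate block gave 0 in 6 libraries and 0 in 12, as did DESeq2 with no block and edgeR with a block within each irradiation arm. DESeq2 with the block gave 29, limma voom with the block 27, a mean of at least 10 counts 13, dropping mitochondrial genes and small structural RNAs 81, an adjusted p under 0.01 61 and a further 2-fold limit 6. Leaving out a replicate pair gave 64 to 333. DESeq2 size factors gave 116, counts without regard to strand 152, no count filter 181 and edgeR's robust spread 179. In the alternatives that tested all 127 genes, 126 or 127 kept their direction. Of the 69 named genes followed, KDM6B alone reversed, from -0.04 to 0.084 without replicate 2, with -0.14 to 0.084 over the replicates left out. The cause of these shifts was not tested. For the difference between the GSK-J1 effect after 4 Gy and that without irradiation, every alternative run gave 0. For the difference between the lines, against 167 calls, no replicate block gave 0, DESeq2 with the block 251, a mean of at least 10 counts 106, and leaving out SAS replicate 1 52, and leaving out a Cal33 pair gave 200 to 293. With 3 pairs, genes of few counts and differences under 1.5-fold are measured poorly.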

Other observations

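Further called genes, picked after their values were seen, were not described above. The linker histone H1F0 had 582.7, 543.8 and 625.5 CPM in replicates 1, 2 and 3 with GSK-J1 and 542.5, 478.0 and 432.7 CPM after 4 Gy alone, with no overlap (log2 fold change 0.26, standard error 0.06, edgeR adjusted p = 0.0140). H1FX, another linker histone, had a log2 fold change of 0.27 (edgeR adjusted p = 0.0252). CD74, the invariant chain of MHC class II, had 87.5, 120.0 and 122 CPM against 80.8, 104 and 86.9 CPM (log2 fold change 0.26, edgeR adjusted p = 0.0212). Also higher were TJP3 and CLDN4 of tight junctions (log2 fold changes 0.31 and 0.23), the sodium channel subunit SCNN1A (0.25) and PIGR, the receptor that carries antibodies across epithelia (0.37, edgeR adjusted p = 0.00317).

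Other genes picked in this way were lower. DDX39B, a helicase of the spliceosome, had 130, 100.8 and 108 CPM against 134, 124 and 141 CPM (log2 fold change -0.25, edgeR adjusted p = 0.0236). LENG8 had a log2 fold change of -0.26 (edgeR adjusted p = 0.0144), RBM3, an RNA-binding protein induced by cold, one of -0.26 (edgeR adjusted p = 0.0214) and PABPC1L, a poly(A)-binding protein, one of -0.30 (edgeR adjusted p = 0.00461). In each of them every pair was lower. None of these calls was made without the replicate pairs.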
